A study of Mus musculus with 15 samples.

Results

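The genes described here encode the proteins of the cytosolic ribosome. They are the rows of the deposited table whose symbol is Rpl or Rps followed by the number of a protein, with or without the letters that mark the acidic stalk proteins, the X-linked gene or a paralog. The rule found 84 of the 53379 genes, and no measured value entered it. Of these, 76 are core genes, 46 for the large subunit and 30 for the small one, and 8 are paralogs or copies outside the core set. All 84 have an entry with the same symbol in the GENCODE vM21 annotation of mm10, in which Rpl32l and Rps4l are processed pseudogenes and the other genes code for protein.

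RNA was measured by stranded paired-end sequencing in lines of mouse fetal liver progenitors transformed by MLL-ENL, a leukemic fusion of a histone methyltransferase with an elongation factor. The WT lines carry floxed alleles of both Cebpa and Cebpb, which encode the myeloid transcription factors C/EBPα and C/EBPβ, and no exogenous gene beside the fusion. The dKO lines are single colonies grown after these alleles were deleted with TAT-Cre, a cell-permeable recombinase, and carry a GFP vector. The LAPS line is dKO with GFP and LAP*, which is the full-length form of C/EBPβ, here from rat. Clones C1 and C2 came from different mice, all cells grew in 10 ng/ml interleukin-3, and WT and dKO were analysed in both clones and LAPS in C1, with 3 libraries per group. The 3 libraries of a group are RNA samples of 1 line taken at different times, so the tests measure the spread within a line and each genotype rests on 1 line per clone.

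A ribosome joins a large and a small subunit, and most of their proteins are each made from a single gene and needed in equal number. The mRNAs of these proteins begin with a run of pyrimidines, the terminal oligopyrimidine tract, through which mTOR and Larp1 set their translation. The genes are transcribed at a high rate from compact promoters. In blood, loss of a copy of several of these genes causes Diamond-Blackfan anaemia, in which red cell precursors fail.

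The sequences around the starts of a few genes are shown for this tract and for genes whose change differed between the clones. Each is 100 bases of mm10 on the strand of the gene, from 70 before to 30 after the start that RefSeq gives (GRCm38.p6), and capitals mark runs of at least 8 C or T. Rpl35 (chr2:39005102-39005201, minus strand), Rpl28 (chr7:4792895-4792994, plus strand), Rps9 (chr7:3703971-3704070, plus strand) and Rps12 (chr10:23787180-23787279, minus strand) have the run at or near the start. Rps26 (chr10:128626477-128626576, minus strand), Rpl31 (chr1:39367781-39367880, plus strand), Rpl37a (chr1:72711190-72711289, plus strand), Rps15 (chr10:80292361-80292460, plus strand) and Rps7 (chr12:28635924-28636023, minus strand) are among the genes that differed, and Rpl37a and Rps15 have no such run in this window. The window of Rpl37a ends just before the start that GENCODE gives, 72711290, and that of Rps15 ends shortly after its GENCODE start. A run at those starts would lie outside the window or be cut by its end.
Rpl35: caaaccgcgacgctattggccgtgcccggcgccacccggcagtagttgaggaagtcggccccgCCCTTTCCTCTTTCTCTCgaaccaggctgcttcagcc
Rpl28: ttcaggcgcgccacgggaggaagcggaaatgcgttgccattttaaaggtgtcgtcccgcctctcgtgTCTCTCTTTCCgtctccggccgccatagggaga
Rps9: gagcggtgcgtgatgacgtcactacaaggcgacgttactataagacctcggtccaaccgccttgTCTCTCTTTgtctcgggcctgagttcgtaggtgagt
Rps12: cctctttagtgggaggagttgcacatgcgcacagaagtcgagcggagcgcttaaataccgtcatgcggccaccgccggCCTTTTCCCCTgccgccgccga
Rps15: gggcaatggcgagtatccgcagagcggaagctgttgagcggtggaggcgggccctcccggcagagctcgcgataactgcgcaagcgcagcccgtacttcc
Rps26: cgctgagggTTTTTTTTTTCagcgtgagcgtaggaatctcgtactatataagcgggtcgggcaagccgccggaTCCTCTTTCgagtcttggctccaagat
Rpl31: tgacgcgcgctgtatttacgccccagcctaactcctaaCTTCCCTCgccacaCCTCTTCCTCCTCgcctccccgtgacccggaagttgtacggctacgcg
Rpl37a: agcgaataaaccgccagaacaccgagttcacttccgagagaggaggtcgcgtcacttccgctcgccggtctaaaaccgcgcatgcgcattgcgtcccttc
Rps7: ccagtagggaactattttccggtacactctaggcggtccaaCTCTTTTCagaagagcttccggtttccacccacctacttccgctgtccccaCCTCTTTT

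RefSeq starts were at hand for 63 of the 84 genes. Such a run lay in the 100 bases of 45 of them (71.4%), against 39.8% of the 27025 genes with a promoter entry and 38.0% of the 9354 tested genes with an entry that encode no protein of this set. The motif CCGGAAG, a core of ETS factor sites, was found on either strand of the 300 bases from 250 before to 50 after the start in 25 of the 63 genes (39.7%), against 9.93% of all genes with an entry and 21.2% of the tested ones. CACGTG, the E-box that Myc binds, was found in 6 (9.52%), between the 8.09% of all genes with an entry and the 12.03% of the tested ones. TATAAA was found in 8 (12.7%), between 15.7% of all and 8.46% of the tested genes, and TTGCNNAA, a core of C/EBP sites, in 5 (7.94%), against 12.2% of all and 10.3% of the tested genes. RefSeq starts can lie off the start used in these cells, and a match is a match of letters only. The 43 tested genes with a pyrimidine run had a median log2 fold change of 0.16 in C1 and 0.26 in C2 between dKO and WT cells, and the 18 without had 0.18 and 0.23.

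The libraries held 9212237 to 13613500 reads on genes. Cebpa and Cebpb were at 0 normalized reads in all 6 dKO libraries, against at least 903 and 1353 in every WT library. In LAPS cells Cebpa was at 0 in 2 libraries and at 0.92 in the third, while the Cebpb row held 2538, 2564 and 4216 normalized reads. Cebpe, encoding C/EBPε, rose by 2.37 in C1 and 2.10 in C2 on the log2 scale (limma, adjusted p = 8e-11 and 3.6e-10). Of 11 progenitor and myeloid markers, 10 or 11 reached 10 normalized reads in each group. Their sum was 94492 to 122204 normalized reads in the WT libraries and 152825 to 218668 in the dKO and LAPS libraries. It thus moved with the ribosomal protein genes. Elane and Prtn3, with means of 53990.5 and 30193 normalized reads over the 15 libraries, weigh heavily on this sum. Between dKO and WT, 8 of the 11 markers were called higher and 1 lower in C1, and 7 and 0 in C2. Of all tested genes 17.1% rose and 19.9% fell in C1, and 17.4% and 20.1% in C2. In each clone 9 of the 11 markers were above 0. The part of this shift of the markers in the results below was not tested. Markers of erythroid cells summed to at most 23.8, of lymphoid cells to at most 13.6, of hepatocytes to at most 165 and of stromal cells to at most 107. Alb and Col3a1, defining genes of the last 2 lists, were listed at 0 in every library. The stromal sum, nearly all Pdgfrb, was 4.98 to 12.6 in WT and 48.7 to 107 in dKO and LAPS libraries, and the hepatocyte sum, nearly all Afp, was lower in dKO and LAPS than in WT libraries of the same clone. Their part in the results was not tested.

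The level per length of the core ribosomal protein genes differed widely. Averaged over the 15 libraries, the core genes ran from 1283 to 27998 normalized reads per kilobase of the shortest annotated coding transcript, with a median of 10824. The highest were Rplp1, a stalk protein (27998), Rps12 (27937), Rps24 (25372), Rpl32 (21581) and Rps4x (19867). The libraries' ranges of Rplp1 and Rps12, 11390 to 16769 and 11580 to 17534 normalized reads, overlapped. The lowest with any reads were Rpl39l (0.124), Rpl3l (10.1), Rpl32l (48.2), Rpl24 (1283) and Rpl7l1 (1883). Only Rpl24 of these 5 is a core gene, and 80.9% of the 76-base words of its transcript also occur in transcripts of other genes. Rps20 stood at 2409 per kilobase over an annotated transcript of 3706 bases, against a median of 681 for the core genes, with a mean of 8927 normalized reads per library.

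Together the 84 genes held a larger share of the gene reads in dKO than in WT cells of both clones. They took 4.85%, 4.86% and 5.36% in the C1 WT libraries and 5.95%, 6.30% and 5.85% in the C1 dKO libraries, a ratio of 1.20 between the means. In C2 they took 5.04%, 4.96% and 5.35% in WT and 5.74%, 6.37% and 6.15% in dKO libraries, a ratio of 1.19. No dKO library overlapped the WT libraries of its clone. The LAPS libraries held 6.32%, 5.63% and 5.80%, above every WT library of C1 and overlapping the dKO libraries, at 0.98 times the dKO mean. Because bulk RNA was sequenced, more cells of a type and more of these mRNAs per cell cannot be told apart. Without the 5 genes with most reads, Rpl4, Rplp0, Rps4x, Rps2 and Rpl7, which held 16.1% of the reads of the set, the ratios were 1.20 and 1.18, and for the 42 genes with under 50% of their words in other genes they were 1.20 and 1.23. Reads that the counting set aside because they map to several places were 17.1% to 19.6% of a library, with overlapping ranges in WT and dKO cells.

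**Figure D1:**
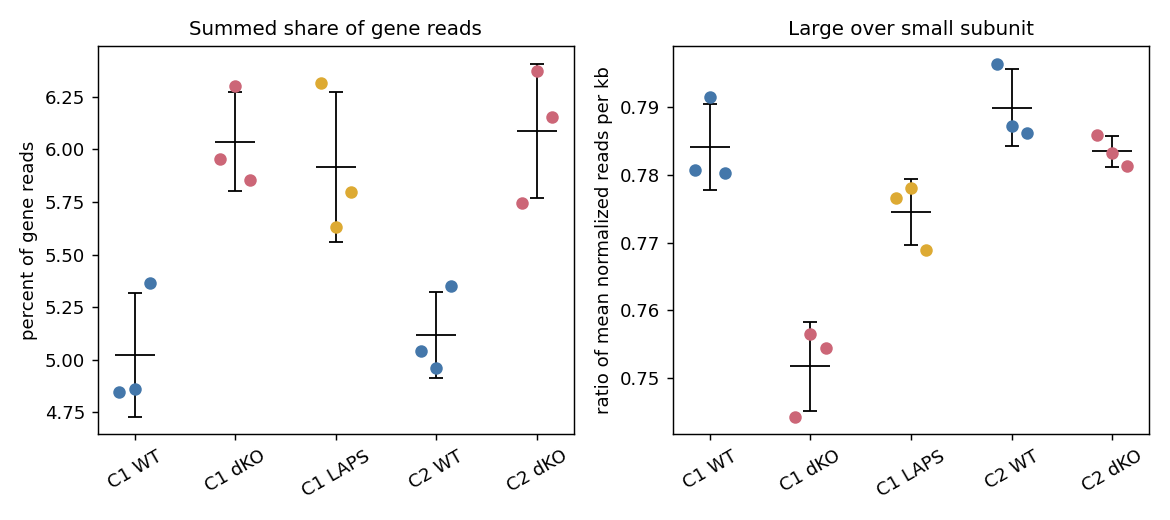
Left, the percent of gene reads that fall on the 84 ribosomal protein genes in each of 15 libraries. Right, the ratio of the mean level per kilobase of the 46 large subunit genes to that of the 30 small subunit genes. Points are libraries, bars mean ± SD of 3. All 6 WT libraries lie between 4.85% and 5.36%, and the 9 dKO and LAPS libraries between 5.63% and 6.37%. The right axis does not start at 0, and its C1 dKO libraries, at 0.744 to 0.756, lie below all others.

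Large subunit genes went from 2.88% ± 0.16 to 3.41% ± 0.14 of gene reads in C1 and from 2.96% ± 0.12 to 3.51% ± 0.18 in C2 (SD, n = 3), and small subunit genes from 2.09% ± 0.13 to 2.58% ± 0.10 and from 2.11% ± 0.09 to 2.53% ± 0.13. The ratio of their mean levels per kilobase was 0.781, 0.792 and 0.780 in C1 WT and 0.744, 0.756 and 0.754 in C1 dKO libraries, which do not overlap. In C2 it was 0.796, 0.787 and 0.786 in WT and 0.786, 0.783 and 0.781 in dKO libraries, ranges that nearly touch, and in LAPS it was 0.777, 0.778 and 0.769, between WT and dKO of C1.

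The genes were then compared one by one. Values were fitted as log2(normalized reads + 1) with limma over the 15 libraries, and p-values were adjusted over 12673 genes, those that reached 10 normalized reads in 3 libraries or more. A gene was called where its adjusted p was under 0.05. Of the 84 genes, 81 passed this filter. Rpl10l and Rps4l were listed at 0 in every library, and Rpl39l had 1 read in 1 library.

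In dKO cells of C1, 29 of the 81 genes rose and 0 fell, where 17.1% of all tested genes rose and 19.9% fell. The median log2 fold change of the set was 0.18, a 1.13-fold difference, against -0.02 for the other tested genes, and 78 of the 81 values were above 0. Of the 43 large subunit genes apart from the stalk, 17 rose, and of the 30 small subunit genes 12. The groups did not overlap in the direction of higher dKO values in 55 genes (21.7% of all tested genes), and in 0 in the other direction. With an unadjusted p under 0.05 Rpl3l alone was lower, and edgeR and DESeq2 called 0 genes lower. The number of risen genes rested on single libraries, being 12 without WT replicate 1, 14 without WT replicate 2 and 15 without dKO replicate 2. Of the 12673 tested genes 1739, 1981 and 1786 rose in these fits, against 2170 with all libraries. Without WT replicate 1 or 2 the share of the set that rose was thus near that of all tested genes.

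In dKO cells of C2, 53 of the 81 genes rose and 0 fell, where 17.4% of all tested genes rose and 20.1% fell. The median was 0.26, a 1.20-fold difference, against -0.03 for the other tested genes, and 79 of 81 values were above 0. Large subunit genes rose in 27 of 43 cases and small subunit genes in 24 of 30. The groups did not overlap in 59 genes (23.7% of all tested genes), all with higher dKO values. With an unadjusted p under 0.05, 0 genes were lower, as with edgeR and DESeq2 at the adjusted threshold. Without WT replicate 2 the number of risen genes was 32, and without dKO replicate 3 it was 35. Of the 12673 tested genes 1870 and 1822 rose in these fits, against 2211 with all libraries.

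**Figure D2:**
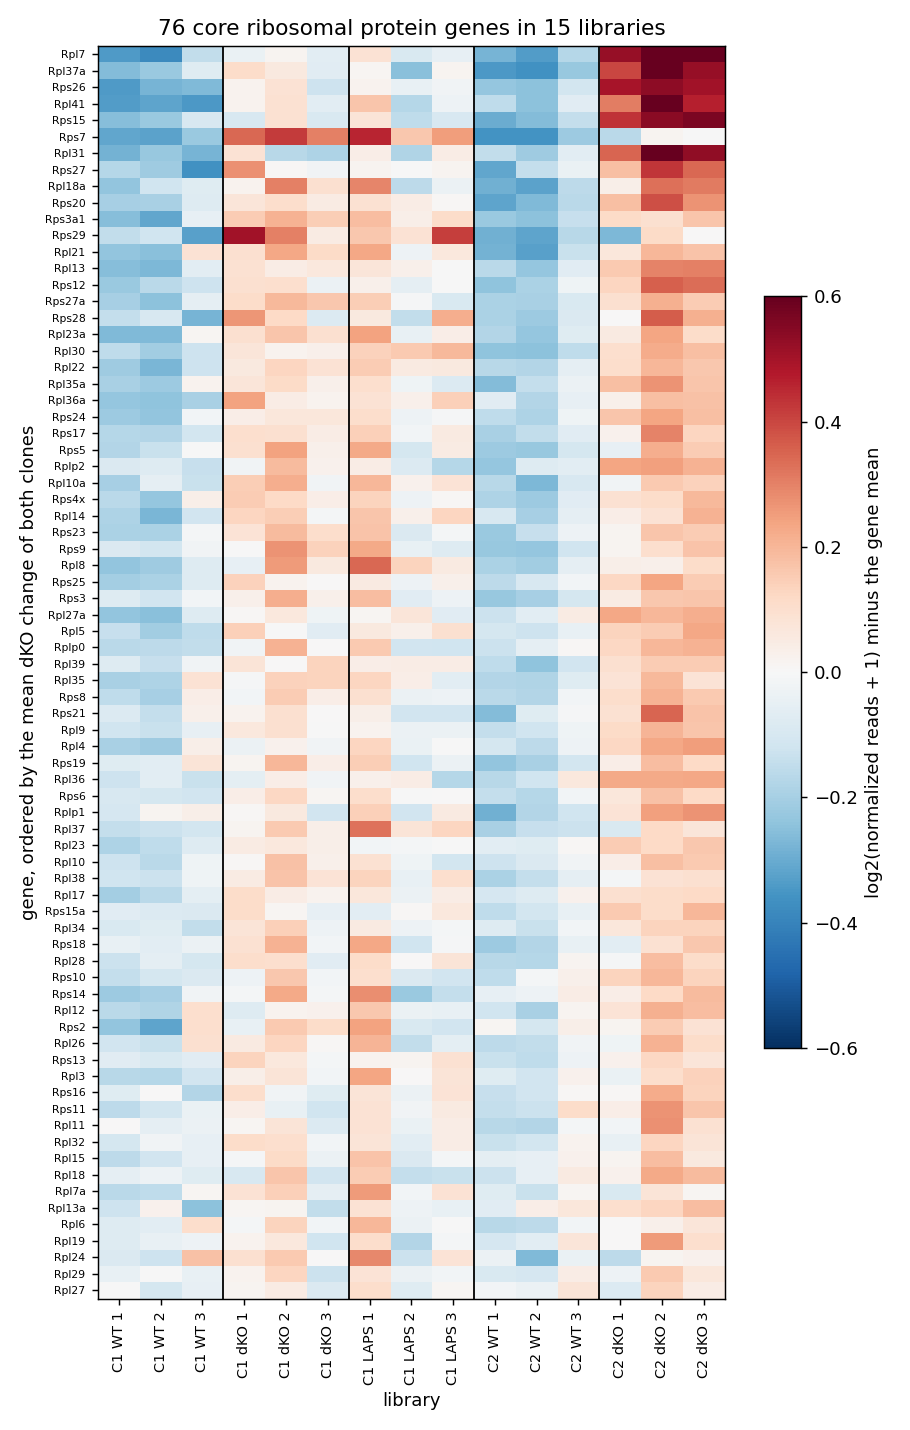
Each row is 1 of the 76 core genes and each column 1 library, coloured by log2(normalized reads + 1) minus the mean of the gene over 15 libraries and clipped at ±0.6. Rows are ordered by the mean dKO change of both clones. WT columns are mostly blue and dKO and LAPS columns mostly red, and WT replicate 3 of either clone is paler than the other WT libraries.

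In both clones 26 genes rose, where 5.69% of all tested genes did. A further 3, Rpl8, Rpl17 and Rps29, rose in C1 only, 27 in C2 only, and 25 in neither, a comparison of thresholds and not a test of the difference. Which clone had more risen genes depended on the scaling, with 62 in C1 and 27 in C2 under quantile scaling and 57 and 40 under scaling to total gene reads. Of all tested genes 21.2% and 19.1% rose under quantile and 21.6% and 15.1% under total scaling. In 49 genes every dKO library was above every WT library in both clones, where 8.19% of all tested genes were. The 5 genes with the largest smaller change were Rpl41, Rps27, Rps3a1, Rps27a and Rpl23a.

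Rpl41 (mm10 chr10:128548114-128549305, minus strand), the shortest large subunit protein, had 5820.3, 5896 and 5771 normalized reads in C1 WT and 7453, 7821 and 7029.6 in C1 dKO libraries, and 6593, 6178 and 6996 in C2 WT and 9065, 11685 and 10126 in C2 dKO libraries. Neither clone's groups overlapped, and it rose by 0.35 ± 0.10 and 0.64 ± 0.10 on the log2 scale (± SE, limma, adjusted p = 0.01 and 9.1e-05). It lies in a stretch where other genes were also higher in C2 dKO cells, and with the median of its neighbouring genes subtracted its changes were 0.37 and 0.29 (limma, adjusted p = 0.0068 and 0.032). Rps3a1 (mm10 chr3:86137940-86142702, minus strand), a small subunit protein, had 11152, 10740.2 and 12851 in C1 WT and 14809, 15399.9 and 14728 in C1 dKO libraries. In C2 its values were 11428, 11242 and 12088 in WT and 14409.9, 14251 and 14966 in dKO libraries. All dKO libraries were above all WT libraries, and its rise was 0.38 ± 0.08 in C1 and 0.33 ± 0.08 in C2 (limma, adjusted p = 0.0011 and 0.003).

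Rps27, a small subunit protein with a zinc finger, rose by 0.34 ± 0.09 in C1 and 0.48 ± 0.09 in C2 (limma, adjusted p = 0.01 and 0.00076), and its call in C1 was lost without dKO replicate 1 (adjusted p = 0.057). Rps27a, which is made as a fusion with ubiquitin, rose from 10134 ± 717 to 12650.3 ± 356 normalized reads in C1 and from 10189.5 ± 406 to 12646 ± 529 in C2 (SD, n = 3). These are changes of 0.32 ± 0.08 and 0.31 ± 0.08 (limma, adjusted p = 0.0039 and 0.0047). Rpl23a, which lies at the exit of the peptide tunnel, rose by 0.29 ± 0.09 and 0.30 ± 0.09 (limma, adjusted p = 0.019 and 0.017). Its calls were lost in C1 without WT replicate 1 or 2 or dKO replicate 2, and in C2 without WT replicate 2 or dKO replicate 2 (adjusted p = 0.062 to 0.084).

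The 5 largest rises were of different genes in each clone. In C2 the 5 largest rises were those of Rpl7, Rpl37a and Rpl31, on chromosome 1, and Rps15 and Rps26, on chromosome 10. In C1 the 5 largest were those of Rps7 and Rps29, on chromosome 12, and of Rps3a1, Rpl41 and Rps27. The difference of the dKO effects between the clones, C2 minus C1, was called for 8 genes, 7 higher in C2 and 1 lower, where 15.1% of all tested genes were higher and 14.3% lower.

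Rpl7 (mm10 chr1:16101295-16104662, minus strand), a large subunit protein, had 13646, 13222 and 15552 normalized reads in C1 WT and 16769, 17435 and 16517 in C1 dKO libraries. In C2 it had 14206, 13669 and 15305 in WT and 24769, 26808 and 26944 in dKO libraries. The WT groups overlapped, and the C2 dKO libraries stood above all others. Its rise was 0.26 ± 0.08 in C1 and 0.86 ± 0.08 in C2 (limma, adjusted p = 0.021 and 9e-07), a difference of 0.60 ± 0.12 (limma, adjusted p = 0.0011), and the call in C1 was lost without WT replicate 1 or 2 or dKO replicate 2 (adjusted p = 0.071 to 0.087). Rpl37a (mm10 chr1:72711290-72713813, plus strand), a zinc finger protein of the large subunit whose RefSeq start is printed above, had 3991, 3934 and 4334 in C2 WT and 6690.2, 8199 and 7273 in C2 dKO libraries, against 4225, 4341 and 4826 and 5462, 5269.7 and 4836 in C1. It rose in C2 by 0.85 ± 0.09, with 0.22 ± 0.09 in C1, which was not called (limma, adjusted p = 3.2e-06 and 0.077), a difference of 0.63 ± 0.13 (limma, adjusted p = 0.0017).

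Rps15 (mm10 chr10:80292453-80294114, plus strand), which sits in the head of the small subunit, had 6994, 7192 and 7801 in C2 WT and 11612, 12514 and 12737 in C2 dKO libraries, with no overlap, and a difference between the clones of 0.59 ± 0.12 (limma, adjusted p = 0.0012). Rps26 (mm10 chr10:128624534-128626747, minus strand), which lies where mRNA leaves the small subunit, had 5198, 5411 and 5475 in C1 WT and 6677, 6983 and 6034 in C1 dKO libraries. In C2 it had 5595, 5543 and 6081 in WT and 9251, 9521 and 9332 in dKO libraries. It rose in both clones, by 0.29 ± 0.07 and 0.71 ± 0.07, and more in C2 (limma, adjusted p of the difference = 0.0032). Rpl31 rose by 0.67 ± 0.10 in C2 and had 0.18 ± 0.10 in C1, a difference of 0.49 ± 0.14 (limma, adjusted p = 0.013).

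Rps7 (mm10 chr12:28630854-28635953, minus strand), a small subunit protein that can bind Mdm2, was the gene with the larger rise in C1. It had 6991, 6961 and 7435 in C1 WT and 11033, 11614 and 10714 in C1 dKO libraries, against 6769, 6778 and 7475 and 7773, 8790.1 and 8679 in C2. No groups of a clone overlapped, the rises were 0.64 ± 0.08 and 0.26 ± 0.08, and the difference was -0.38 ± 0.12 (limma, adjusted p = 0.023). That difference was not called without C1 WT replicate 1, C1 dKO replicate 2, C2 WT replicate 3 or C2 dKO replicate 1 (adjusted p = 0.05 to 0.063), and the rise in C2 not without WT replicate 1 or 2 or dKO replicate 2 or 3 (adjusted p = 0.066 to 0.071). Rps29 (mm10 chr12:69157722-69159186, minus strand) had 5796, 5918 and 5128 in C1 WT and 9117, 7932 and 6652 in C1 dKO libraries, a wide spread with no overlap, and rose by 0.48 ± 0.12 (limma, adjusted p = 0.0052). In C2 it had 0.20 ± 0.12, which was not called, and the difference between the clones was not called either (limma, adjusted p = 0.25).

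Rps20 on chromosome 4 and Rplp1 on chromosome 9 were the other 2 genes with a called difference. Rps20 rose by 0.23 ± 0.07 in C1, a call lost without WT replicate 1 or 2 or dKO replicate 2 (limma, adjusted p = 0.053 to 0.064), and by 0.53 ± 0.07 in C2. Its difference of 0.29 ± 0.10 (limma, adjusted p = 0.036) was lost when any of 7 of the 12 libraries was left out (adjusted p = 0.061 to 0.088). Those libraries were C1 WT replicate 3, C1 dKO replicates 1 and 3, C2 WT replicates 1 and 2 and C2 dKO replicates 2 and 3.

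**Figure D3:**
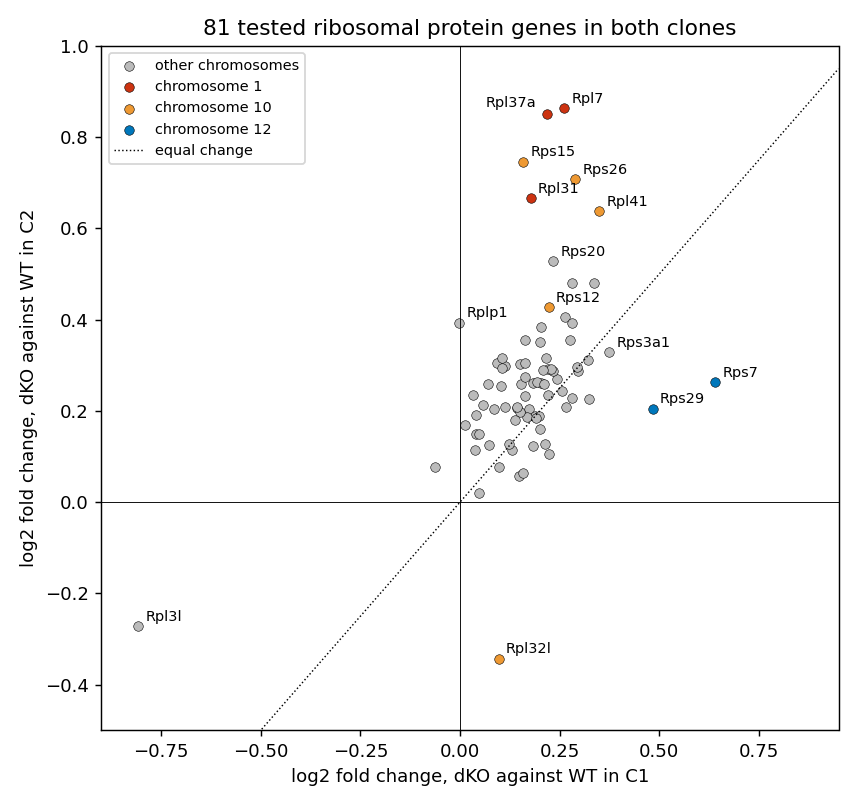
Log2 fold change of dKO against WT in C1 (horizontal) and C2 (vertical) of the 81 tested genes, coloured by chromosome, with the line of equal change dotted. The genes of chromosome 1 and 3 of chromosome 10 lie above the line at 0.64 to 0.86 in C2, and both genes of chromosome 12 lie to the right, at 0.48 and 0.64 in C1.

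Genes that encode no ribosomal protein moved the same way on these chromosomes. In C2 the 751 other tested genes of chromosome 1 had a median log2 fold change of 0.43, and 82.4% of them were above 0, while in C1 their median was -0.04. On chromosome 10 the median in C2 was 0.27, and it ran from 0.36 to 0.39 in windows of 20 Mb from 60 Mb on, where Rps15, Rps26 and Rpl41 lie, and from -0.05 to 0.07 before, where Rps12 lies. On chromosome 12 the median was 0.34 in C1, -0.09 in C2 and 0.31 for LAPS against WT. The next highest median of a chromosome was 0.11 in C2, on chromosome 8, and 0.09 in C1, on chromosome 15. For LAPS against WT the median of chromosome 15 was 0.19, with 71.9% of its other tested genes above 0, and for LAPS against dKO it was 0.10, with 65.1% above 0. DNA was not analysed here.

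After the median of the nearest other tested genes of the chromosome was subtracted, a step added after seeing the data, the changes of Rpl7 were 0.36 in C1 and 0.42 in C2, and those of Rps7 0.42 and 0.41. The difference between the clones was then 0.06 for Rpl7, 0.27 for Rpl37a, 0.01 for Rpl31, 0.05 for Rps26 and -0.01 for Rps7, none called, and 0.26 for Rps15, still called (limma, adjusted p = 0.046). That of Rps20 was 0.27 and no longer called (limma, adjusted p = 0.15). Differences were called for Rps15, Rps19, Rplp1 and Rplp2, all higher in C2, where 12% of all tested genes were called higher and 12% lower after the same step. In the dKO comparisons it left 39 genes called higher in C1 and 66 in C2, and 0 lower, where 16.9% and 15.6% of all tested genes were higher. The 71 tested genes off chromosomes 1, 10 and 12 rose in 23 cases in C1, with a median of 0.17, and in 45 in C2, with a median of 0.24, where 17.1% and 17.4% of all tested genes rose. The 10 on them had medians of 0.24 and 0.65.

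**Figure D4:**
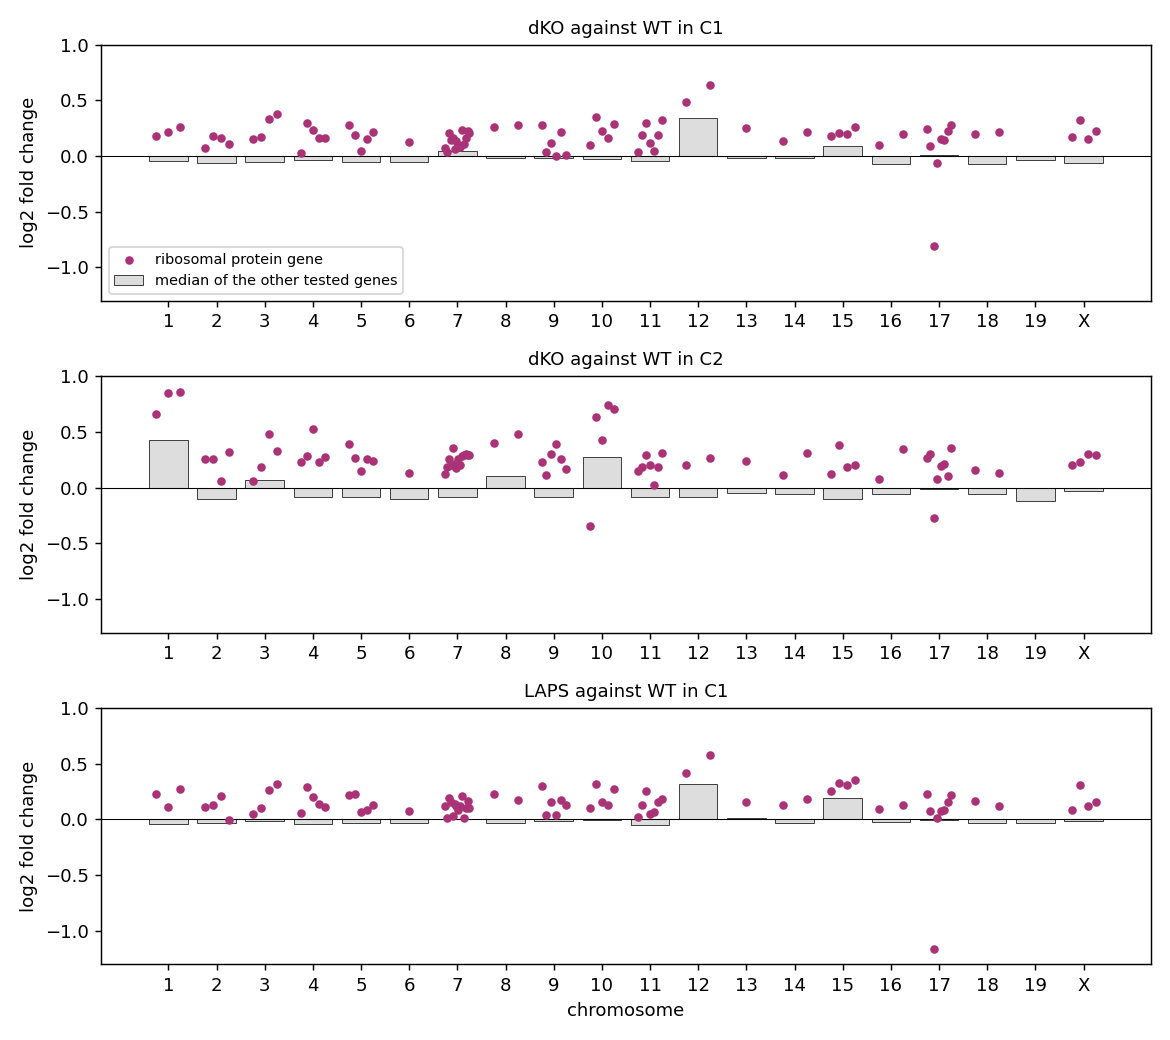
Grey bars are medians of the log2 fold change of the other tested genes of a chromosome, points the ribosomal protein genes on it, for dKO against WT in C1 and C2 and LAPS against WT. Most points lie above their bar, and the bars stand out on chromosome 12 in C1 and LAPS (0.34 and 0.31), on chromosome 15 in LAPS (0.19) and on chromosomes 1 and 10 in C2 (0.43 and 0.27).

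**Figure D5:**
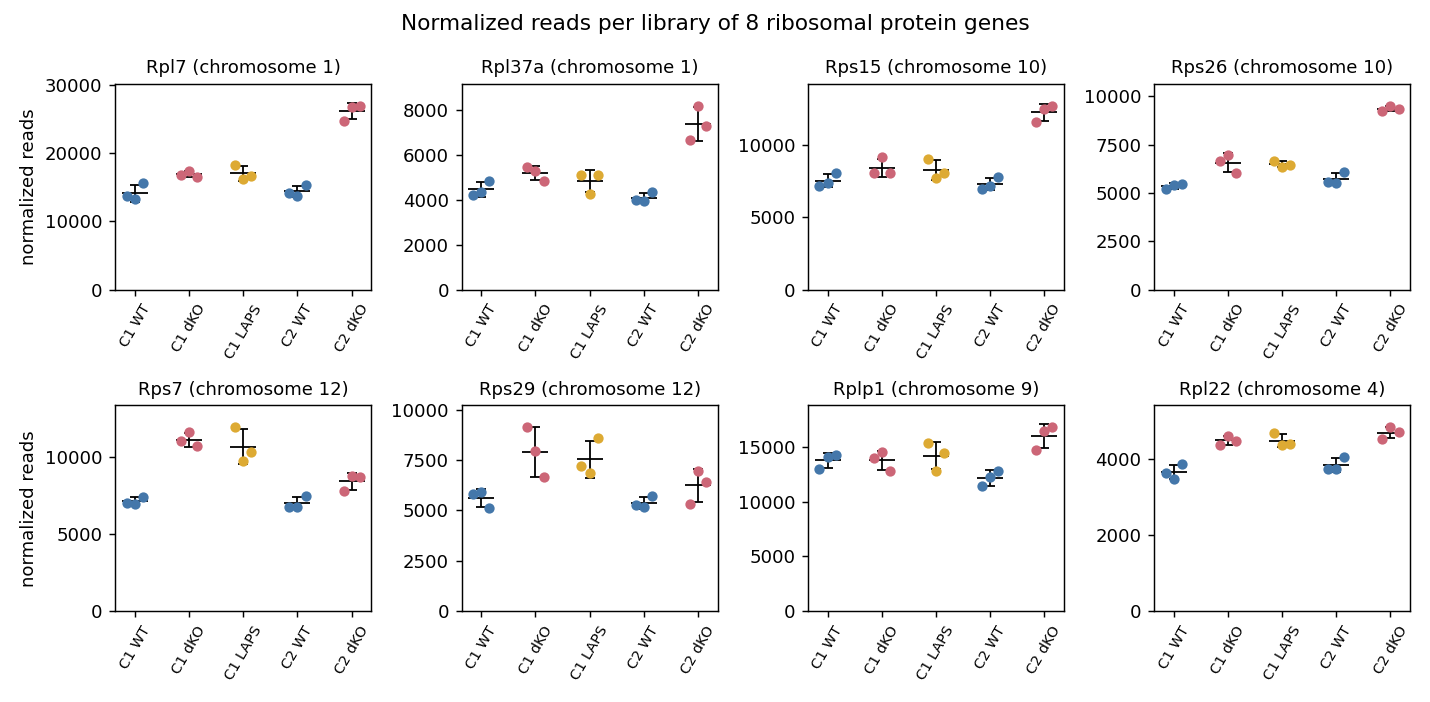
Normalized reads of 8 genes in each library, with mean ± SD of 3. Rpl7, Rpl37a, Rps15 and Rps26 are highest in C2 dKO, Rps7 and Rps29 in C1 dKO and LAPS. Rplp1 has 12821 to 14488 in C1 dKO and 14708 to 16769 in C2 dKO libraries.

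The stalk proteins form the arm of the large subunit that recruits elongation factors, with Rplp0 as its base. Of the 7 tested rows listed as stalk or ubiquitin-linked, 4 of them members, 1 rose in C1 and 5 in C2 and 0 fell, where 17.1% and 17.4% of all tested genes rose. Rplp1 had 12972, 14061 and 14255 in C1 WT and 13954, 14488 and 12821 in C1 dKO libraries, which overlapped, with a difference of 0.00 ± 0.09. In C2 it rose from 11389.7, 12285 and 12797 to 14708, 16464 and 16769, by 0.39 ± 0.09 (limma, adjusted p = 0.002). The difference between the clones was 0.40 ± 0.12 (limma, adjusted p = 0.024), and it was lost without C1 dKO replicate 3, C2 WT replicate 1 or C2 dKO replicate 3 (adjusted p = 0.06 to 0.066). Rplp2 rose in C2 by 0.35 ± 0.08 and had 0.16 ± 0.08 in C1 (limma, adjusted p = 0.0016 and 0.11). Rplp0 passed in neither clone, with 0.22 ± 0.09 and 0.24 ± 0.09 (limma, adjusted p = 0.073 and 0.055).

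Rpl5 and Rpl11 join the small ribosomal RNA of the large subunit and, when free, bind Mdm2, the ligase that degrades the product of Trp53. Rpl5 had 8985, 8553 and 8892 in C1 WT and 10934, 9872 and 9443 in C1 dKO libraries, and 9198, 9067 and 9600.2 and 10858, 10980.1 and 11628 in C2. It rose in both, by 0.19 ± 0.07 and 0.26 ± 0.07 (limma, adjusted p = 0.036 and 0.006), but its call in C1 was lost without any of 5 libraries, all but dKO replicate 3 (adjusted p = 0.054 to 0.16). Rpl11 had 0.03 ± 0.08 in C1 and rose by 0.23 ± 0.08 in C2 (limma, adjusted p = 0.79 and 0.029), a call lost without WT replicate 1 or 2 or dKO replicate 2 or 3 (adjusted p = 0.058 to 0.14). Of the other 5 genes of this list, Mdm2 fell by 0.32 in C1 and rose by 0.24 in C2, and Trp53 had -0.24 in C1 and rose by 0.49 in C2 (limma, adjusted p = 0.0072, 0.035, 0.063 and 0.00085). Both differences between the clones were called (limma, adjusted p = 0.0022 and 0.00078). Mdm2 lies on chromosome 10 between 100 and 120 Mb, where the median of the other tested genes was -0.12 in C1 and 0.36 in C2. Rrs1, which loads this complex and lies on chromosome 1, rose by 0.79 in C2, and Rpf2 and Cdkn1a passed in neither clone.

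The paralogs take the place of a core protein in some tissues. Rpl7l1, Rpl22l1 and Rps27l were expressed at 1295 to 2859 normalized reads in every library and 0 of the 3 were called in the 5 comparisons as fitted. Rpl22l1 was called higher in C1 dKO cells by 3 alternatives, with 0.22 under total scaling, 0.27 under quantile scaling and 0.28 with its neighbouring genes subtracted (limma, adjusted p = 0.047, 0.02 and 0.0089). Rpl22, the core form of Rpl22l1, had 3638, 3488 and 3874 in C1 WT and 4387, 4616 and 4485 in C1 dKO libraries and rose by 0.30 ± 0.06 and 0.29 ± 0.06, while Rpl22l1 had 0.15 ± 0.08 and 0.06 ± 0.08, and the difference between these 2 genes was not tested. Rpl3l, the muscle form of Rpl3, had at most 21.99 normalized reads in a library. It had 16.1, 14.4 and 9.17 in C1 WT and 5.08, 7.37 and 3.65 in LAPS libraries, a fall of 1.17 on the log2 scale (limma, adjusted p = 0.023). With few reads behind it, this call was lost without WT replicate 1 or 2 or LAPS replicate 1 or 3 (adjusted p = 0.056 to 0.097). Rpl32l, with at most 30.6, was not called. Rps3a2 and Rps3a3, copies of Rps3a1 whose names fall outside the rule, had at most 89 reads, and Rps3a2 rose in C1 by 0.57 and had 0.47 in C2 (limma, adjusted p = 0.038 and 0.083), while Rps3a3 had 0.37 and 0.32 and was not called.

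LAPS cells tell whether these levels differ once a C/EBPβ is expressed again. Between LAPS and dKO cells of C1, 0 of the 81 genes rose and 0 fell, where 1.43% of all tested genes rose and 3.03% fell, and edgeR and DESeq2 also called 0. With the median of the neighbouring genes subtracted 0 rose and 0 fell as well, where 1.33% and 2.7% of all tested genes did. An unadjusted p under 0.05 was reached by 0 genes in either direction. The core genes ran from -0.14 to 0.12 around a median of -0.03, with a median SE of 0.08, so differences of this size were not detectable. Of the small subunit genes 2 of 30 were above 0, with a median of -0.06, and of the large subunit genes 18 of 43, with a median of -0.01. The groups did not overlap in 3 genes, Rpl30 and Rps27l with higher and Rpl23 with lower LAPS values, where 10.4% of all tested genes were higher and 13.7% lower without overlap.

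Against WT, 21 of the 81 genes were higher in LAPS cells and 1, Rpl3l, was lower, where 14.2% of all tested genes were higher and 18.3% lower. The median was 0.13, a 1.10-fold difference. This comparison shares its WT libraries with that of dKO cells, in which 19 of the 21 had also risen, Rpl3 and Rpl37 being the others. Both lie on chromosome 15 with Rpl8 and Rpl30, which were among the 21 as well, and there the median of the other tested genes was 0.19 in this comparison. With the median of the neighbouring genes subtracted, the values were 0.05 for Rpl3, 0.11 for Rpl37, 0.14 for Rpl8 and 0.16 for Rpl30, and 0 of the 4 were called (limma, adjusted p = 0.65, 0.48, 0.16 and 0.087). In all, 21 genes were called higher and 1 lower after this step, where 14.1% of all tested genes were higher and 17.5% lower. Rps7 had 11910.4, 9706 and 10348 in LAPS libraries, 0.57 ± 0.08 above WT, and Rpl22 had 4691, 4383 and 4389, 0.29 ± 0.06 above WT (limma, adjusted p = 4.8e-05 and 0.0018). Rpl41 was 0.32 ± 0.10 above WT (limma, adjusted p = 0.019), a call lost without LAPS replicate 1 (adjusted p = 0.096). The number of higher genes was 13 without WT replicate 1, 12 without WT replicate 2 and 11 without LAPS replicate 1. Of the 12673 tested genes 1474, 1605 and 1530 were higher in these fits, against 1796 with all libraries.

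Many of these genes have processed copies elsewhere in the genome, and reads from a stretch that they share cannot be placed. Of the 84 genes, 42 have under 50% of the 76-base words of their transcript in transcripts of other genes. The 39 tested genes with under 50% of such words rose in 13 cases in C1 and 28 in C2, with medians of 0.19 and 0.26, and the other 42 in 16 and 25, with medians of 0.18 and 0.23, where 17.1% and 17.4% of all tested genes rose. Of 295 rows named as ribosomal protein pseudogenes 57 were tested, and they held 0.021% to 0.030% of gene reads. Of these, 2 rose in C1 and 7 in C2, and 0 and 1 fell, with medians of 0.25 and 0.18.

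Other genes that serve the ribosome were read from lists. Of 20 genes of Diamond-Blackfan anaemia, 18 of them members, 9 rose in C1 and 13 in C2 and 0 fell, with medians of 0.20 and 0.26, where 17.1% and 17.4% of all tested genes rose. As nearly all are members, these counts largely repeat those of the set. Among the members were Rps19, the gene most often mutated in the disease, with 0.10 ± 0.08 in C1 and a rise of 0.30 ± 0.08 in C2 (limma, adjusted p = 0.34 and 0.0097). Tsr2, the chaperone of Rps26, rose in C1 by 0.46 and had 0.15 in C2 (limma, adjusted p = 0.0041 and 0.31).

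Cytosolic ribosomal proteins whose names fall outside the rule rose in 1 of 8 tested rows in C1 and 4 in C2, where 17.1% and 17.4% of all tested genes rose. Among them were Rpsa at 0.23 and 0.17, not called, and Rack1, not called in C1, at 0.23 in C2 (limma, adjusted p = 0.065, 0.16 and 0.045). Other mRNAs with a terminal oligopyrimidine tract, such as elongation factors and Pabpc1, rose in 6 of 20 cases in C1 and 11 in C2, with medians of 0.10 and 0.23, and 0 fell, where 19.9% and 20.1% of all tested genes fell. Eef1b2, on chromosome 1, rose by 0.31 and 0.83, and Pabpc1, on chromosome 15, by 0.34 and 0.32 (limma, adjusted p = 0.0062, 9.5e-07, 0.0047 and 0.0076).

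Factors of ribosome production cut and fold ribosomal RNA in the nucleolus. In C1, 1 of 24 rose and 1 fell, with a median of -0.06, and in C2 13 rose and 0 fell, with a median of 0.26. Of all tested genes 17.1% rose and 19.9% fell in C1, and 17.4% and 20.1% in C2. The difference between the clones was called higher in C2 for 12 and lower for 1 of the 24, where 15.1% of all tested genes were higher and 14.3% lower. Nop58 and Wdr12, both on chromosome 1, had -0.09 and 0.19 in C1 and rose by 0.89 and 1.14 in C2, and Wdr43, on chromosome 17, had -0.10 and rose by 0.86 in C2 (limma, adjusted p in C2 = 4.9e-07, 9e-07 and 8.2e-08).

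Chaperones and importers of ribosomal proteins rose in 1 of 13 cases in C1 and 5 in C2, and 1 fell in each. Of 22 tested regulators of these genes, 2 rose and 5 fell in C1, and 4 rose and 5 fell in C2, where 17.1% of all tested genes rose and 19.9% fell in C1 and 17.4% and 20.1% in C2. Myc had -0.03 in C1 and rose by 0.53 in C2, and Larp1 fell by 0.41 in C1 and had -0.10 in C2 (limma, adjusted p = 0.88, 0.0032, 0.00037 and 0.33). Proteins of the mitochondrial ribosome, made by a separate set of genes, had medians of -0.08 and -0.02, with 3 of 78 risen and 9 fallen in C1 and 11 and 7 in C2.

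The genes that followed the mean of the set most closely over the 15 libraries, by Pearson's r of log2 values, were Elane (0.94), Ddost (0.93), Prtn3 (0.93), Kif17 (0.92), Ptpn7 (0.92), Lsm7 (0.91), Rps6ka1 (0.91), Eef1b2 (0.91), Yjefn3 (0.90) and Kti12 (0.90). Elane and Prtn3 encode proteases of myeloid granules, Ddost a subunit of the oligosaccharyltransferase, and Eef1b2 an elongation factor subunit. The libraries share their genotype groups, so these values describe how alike the patterns are and carry no test.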

How the data were processed

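RNA of 15 libraries was analysed, 3 each of WT, dKO and LAPS in C1 and of WT and dKO in C2. Per the labels and the study's methods, the authors sequenced TruSeq stranded mRNA libraries in pairs on a NextSeq 500, aligned reads to mm10 with STAR 2.5.3a and counted them with HTSeq 0.10.0. The deposited signal is the read count per gene divided by a DESeq2 1.26.0 size factor. The annotation and strand setting of the counting are not given in the sources used here, so overlapping and antisense genes may share reads. Reads that map to several places were set aside, which lowers genes with near-identical copies.

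Whole reads were recovered from the steps of the values, with 100% within 0.1 of a whole read, at 9212237 to 13613500 reads per library. Intervals between libraries cover the spread of RNA samples of 1 line. Of 53384 rows, 5 held other reads and stayed out, and 3 columns matching no sample were not used. The 12673 genes that reached 10 normalized reads in 3 libraries or more were fitted as log2(normalized reads + 1) with limma 3.58.1 (R 4.3.3) with 1 mean per group and a mean-variance trend, and p-values were Benjamini-Hochberg adjusted over these genes. Fold changes on this scale understate those of low genes. edgeR 4.0.16 and DESeq2 1.42.0 on the recovered reads, other scalings, filters and pseudocounts, a replicate block and leaving out each library were alternatives. The fit was tested on simulated data. Positions are from GENCODE vM21 and promoters from RefSeq GRCm38.p6.

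The members and gene lists were chosen with earlier results of these data known. Named were the 5 members with the largest called change in each direction per comparison, the 5 with the largest smaller change in both clones, the 5 highest and lowest per kilobase, the genes of the paralog, stalk and Rpl5/Rpl11 lists, Cebpa, Cebpb and Cebpe, and the 10 other genes most alike. Every other gene named, such as Rps20, Rpl22 and Rpl8, was chosen after its values were seen. Some genes that this rule would name are not reported here.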

Additional observations from a re-analysis of the deposited data

Results flagged for a closer look

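The effect of the double knockout differed between the clones, by limma's test of the difference itself, in 8 ribosomal protein genes. Of the 81 tested, 7 were called higher and 1 lower in C2, where 15.1% of all tested genes were higher and 14.3% lower. Such differences were thus less frequent in the set than among all tested genes. C2 minus C1, the difference on the log2 scale was 0.633 for Rpl37a, 0.602 for Rpl7, 0.587 for Rps15, 0.489 for Rpl31, 0.418 for Rps26, 0.395 for Rplp1, 0.295 for Rps20 and -0.378 for Rps7. The first 5 of these were called whichever of the 12 libraries of the comparison was left out, while those of Rplp1, Rps20 and Rps7 were each lost without some library. Rpl7, Rpl37a and Rpl31 lie on chromosome 1, Rps15 and Rps26 on chromosome 10 and Rps7 on chromosome 12, where the other tested genes differed in the same direction. Of these 6 genes Rps15 alone was still called after the median of its neighbouring genes was subtracted, and of the other 2 Rplp1 was called and Rps20 was not, with a difference of 0.27 (limma, adjusted p = 0.15).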

How the results depend on the processing

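The number of genes risen in C1 dKO cells (29) was 17 with no filter, 57 with total scaling and 62 with quantile scaling. It was 15 with only the groups compared, 16 at a change of at least 0.25, and 12 to 35 with 1 library left out. Of 12673 tested genes, 2170 rose in C1 as fitted, 2737 with total scaling, 2681 with quantile scaling and 1694 with only the groups compared. Without the filter 2149 of 24520 did. The number risen in C2 dKO cells (53) was 27 with quantile scaling and 32 to 56 with 1 library left out. Of all tested genes 2211 rose in C2 as fitted and 2416 with quantile scaling. The difference between the clones (7 higher, 1 lower) was called higher for 2 and lower for 3 with quantile scaling. After centring on neighbouring genes, an alternative chosen after seeing the data, it was called higher for 4 and lower for 0. With 1 library left out it was called higher for 5 to 8 and lower for 0 to 1. Of all tested genes 1910 were higher and 1810 lower as fitted, and 1752 and 1923 with quantile scaling. After centring, 1524 were higher and 1526 lower. LAPS cells against WT (21 higher, 1 lower) gave 37 higher with total scaling, 47 with quantile scaling and 10 with only the groups compared. Of all tested genes 1796 were higher as fitted, 2355 with total scaling, 2521 with quantile scaling and 1298 with only the groups compared. With 1 library left out, 11 to 26 of the set were higher and 0 to 1 lower. With no filter or DESeq2, 0 were lower. The median of the set in C1 was 0.257 with total and 0.282 with quantile scaling, that in C2 was 0.162 with quantile scaling and 0.324 after centring, and that of LAPS against WT was 0.204 and 0.227 with total and quantile scaling. The median difference between the clones (0.08) was -0.043 with total and -0.099 with quantile scaling, and 0.038 to 0.118 with 1 library left out, and total scaling moved the median of all genes by -0.118. The cause of these changes was not tested. LAPS against dKO gave 0 calls in each alternative run. With the replicate block 26 genes rose in C1 and 51 in C2. The replicate numbers did not pair the libraries, with correlations of same-numbered deviations of -0.174 to 0.297 against -0.252 to 0.207 for other numbers. With 3 libraries a group, changes near the median SE of 0.08 were not detectable, and larger ones could be missed. In LAPS against dKO cells Rpl30, at 0.12 ± 0.06 (± SE), was not called (limma, adjusted p = 0.28).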
